A study of Glycyrrhiza uralensis with 48 samples.

Results

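The comparison described here is aerial salt-drought against aerial drought in Glycyrrhiza uralensis (licorice) seedlings, that is, what differed with salt in shoots of plants under drought. It was chosen by its labels alone: the 3 aerial salt-drought libraries and the 3 aerial drought libraries, all without silicate, 6 of the 48 libraries of the series, with all 38463 genes of the expression table. Drought was a moisture of 35 to 45% of saturation, and salt-drought was the same moisture with 75 mM NaCl. All plants grew from 75 seeds per pot in 1900 g of sterilised nutrient-free desert sand and were 45 days old. The other groups used below are aerial control (distilled water) and aerial salt (75 mM NaCl), drought and salt-drought with 2 mM silicon given as potassium silicate, and underground parts under drought and salt-drought. Unstressed libraries of both parts, with and without silicate, served to choose markers, plant-part classes and abundant genes. Each main fit of aerial parts held all 24 aerial libraries. Control with silicate and salt with silicate thus also entered the choice of tested genes and the estimate of spread. Underground fits held all 24 underground libraries, including control and salt with and without silicate, and comparisons of the parts held all 48. In the latter, aerial and underground libraries were treated as independent, also where they bear the same number. The labels do not say whether libraries came from separate pots or from pooled seedlings, so the p-values below reflect only how far these libraries scatter, which may be technical.

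As background, drought and salt both make water harder to take up, and salt also loads sodium and chloride into the shoot. Plants are known to answer both through abscisic acid signalling, compatible solutes and changes of ion transport. Licorice is a legume of dry and saline soils, and its underground parts are harvested for glycyrrhizin. Neither the expression table nor the annotation pairs identifiers with gene names or functions. Genes are therefore given by identifier and position, at most 2 that rose and 2 that fell for each comparison, and gene groups are described by level, gene structure, position and plant part.

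Levels are FPKM, fragments scaled by transcript length and library depth. Depth, estimated from the most frequent low value, was 18.1 to 22.8 M fragments in the drought libraries and 15.7 to 18.1 M in the salt-drought libraries, where 1 FPKM of a gene of 1500 nt stands for 23.6 to 34.2 fragments. Drought libraries held 20892 to 21752 genes at 1 FPKM or more and salt-drought libraries 19747 to 20022. On the log2(FPKM + 1) scale, over all genes of the table, drought libraries correlated with each other at a mean r of 0.971 to 0.978 and salt-drought libraries at 0.983 to 0.984. Each of the 6 was closer to its own group than to the other aerial groups (0.959 to 0.969). Drought library 3 stood apart in its underground transcripts. The 16 underground markers, genes abundant underground and nearly absent above ground in unstressed plants, had a median of 9.59% of their underground level there, against 0.476 and 0.388% in drought libraries 1 and 2 and 0.0199, 0.0562 and 0.0114% in salt-drought libraries 1 to 3. Summed over the markers, the level was 0.170, 0.133 and 9.26% in drought and 0.0131, 0.0546 and 0.0472% in salt-drought. None was listed at 0 in drought, and 5, 2 and 5 were in the salt-drought libraries. The 12 aerial markers had medians of 63.7 to 78.7% of their unstressed aerial level in drought and 103 to 128% in salt-drought, with summed levels of 63.2 to 85.0% and 109 to 143%. Results are therefore also given without drought library 3.

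**Figure D1:**
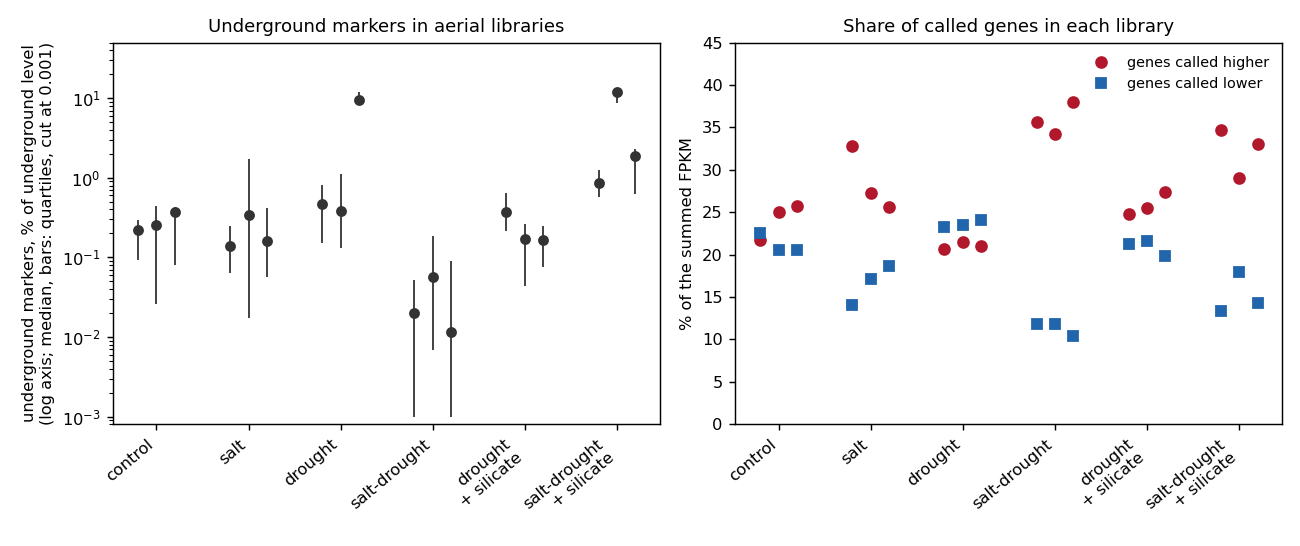
Left, the median level of 16 underground markers in each aerial library as a percent of their level in unstressed underground parts (log axis, bars are quartiles). Right, the percent of each library's summed FPKM held by the genes called higher (circles) or lower (squares) in salt-drought than in drought. Drought library 3 stands at 9.59% on the left, and on the right the genes called higher hold 34.2 to 38.0% in salt-drought libraries and 20.7 to 21.5% in drought libraries.

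Adding salt to drought moved a large share of the expressed aerial genes, more of them down than up, and the falls were the larger changes. Of 23389 genes tested (at least 1 FPKM in at least 3 aerial libraries), 7328 were called at an adjusted p under 0.05 with limma, 31.3% of those tested. Of these 2814 rose (12.0%) and 4514 fell (19.3%). The median change was 0.66 among the genes that rose and -0.88 among those that fell, in log2 units. At least 1 log2 unit separated the groups in 562 of the genes that rose and 1859 of those that fell, and at least 3 log2 units in 7 and 84. The 3 salt-drought values lay beyond the 3 drought values in 2689 of the 2814 and 4362 of the 4514, while over all tested genes they did so in 46.0% (17.6% above and 28.4% below).

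The balance of rises and falls depends in part on scaling. The median of all tested genes stood at -0.09, and when each library was divided by its median ratio to the others it was -0.02, with 3642 genes higher and 3932 lower. All 2814 rises kept their call in that fit, 3932 of the 4514 falls did, and no called gene turned. Without drought library 3, 2345 genes rose and 3426 fell, and 2191 of the rises and 3211 of the falls were the same genes. Leaving out salt-drought library 3 lowered the count of called genes most, to 4740.

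**Figure D2:**
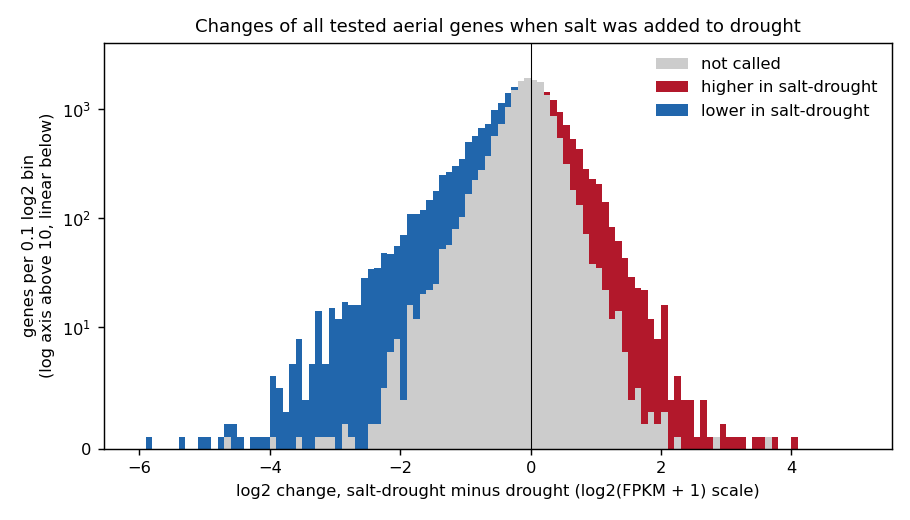
Number of tested aerial genes per bin of log2 change, salt-drought minus drought (vertical axis logarithmic above 10). Red and blue are genes called higher (2814) and lower (4514), grey those not called, and the blue tail reaches further than the red.

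The genes that changed made up a large part of the aerial transcript pool. The 2814 genes that rose, chosen by this contrast, held 20.7, 21.5 and 21.0% of the summed FPKM in drought libraries 1 to 3 and 35.7, 34.2 and 38.0% in the salt-drought libraries. The 4514 that fell went from 23.3, 23.4 and 24.1% to 11.8, 11.8 and 10.4%. In groups outside this contrast, the genes that rose held 21.8 to 25.7% in control and 25.6 to 32.8% in salt. They held 24.7 to 27.4% in drought with silicate and 29.0 to 34.7% in salt-drought with silicate. The same genes thus stood higher in the salted libraries than in the unsalted ones of the silicate-fed plants, while the ranges of salt and control touched, at 25.6 and 25.7%. The genes that fell held 20.6 to 22.5% in control and 14.0 to 18.6% in salt. With silicate they held 19.9 to 21.7% in drought and 13.4 to 18.0% in salt-drought, and neither pair of ranges overlapped.

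Calls among the most abundant genes depended on how many are taken. Of the 100 most abundant genes of unstressed shoots, picked in control libraries with and without silicate, 51 rose and 16 fell, and of the top 20, 12 rose and 1 fell. Of the top 500, 141 rose and 116 fell, with a median change of 0.04, against 12.0% of all tested genes that rose and 19.3% that fell. The top 20 took 9.44, 8.11 and 8.35% of the summed FPKM in drought and 12.3, 11.1 and 11.4% in salt-drought, without overlap. Among 1039 genes with an aerial mean over 100 FPKM, 27.9% rose and 18.7% fell. Among 5142 genes under 2 FPKM, 3.75% rose and 15.0% fell. Without drought library 3, 24.4% of the genes over 100 FPKM rose and 17.1% fell. Of those under 2 FPKM, 2.99% then rose and 8.91% fell, beside 10.1 and 14.8% of all tested genes. The aerial mean and the filter for tested genes include the libraries compared, so the classes were not chosen independently of this contrast. A log2(FPKM + 1) change understates that of scarce genes, so the 2 classes did not have the same chance of a call.

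Genes that belong to the underground part moved mainly down. Of 3555 tested genes at least 1 log2 unit higher underground in unstressed plants, 1280 fell and 118 rose, 36.0 and 3.32%, with a median change of -0.56 against -0.09 over all tested genes. Underground markers moved the same way between these libraries, as given above, and their part in these falls was not tested. Without drought library 3, 734 of 3449 such genes fell (21.3%) and 104 rose (3.02%), with a median of -0.41 against -0.07 over all genes. In drought libraries 1 and 2 the markers still stood above all 3 salt-drought libraries. In bulk tissue, fewer cells of a type and less RNA per cell cannot be told apart. Genes higher in aerial parts moved in both directions: of 4046, 938 rose and 688 fell, 23.2 and 17.0%, against 12.0 and 19.3% of all tested genes. Of 15788 genes in neither class, 1758 rose and 2546 fell (11.1 and 16.1%), near those shares.

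**Figure D3:**
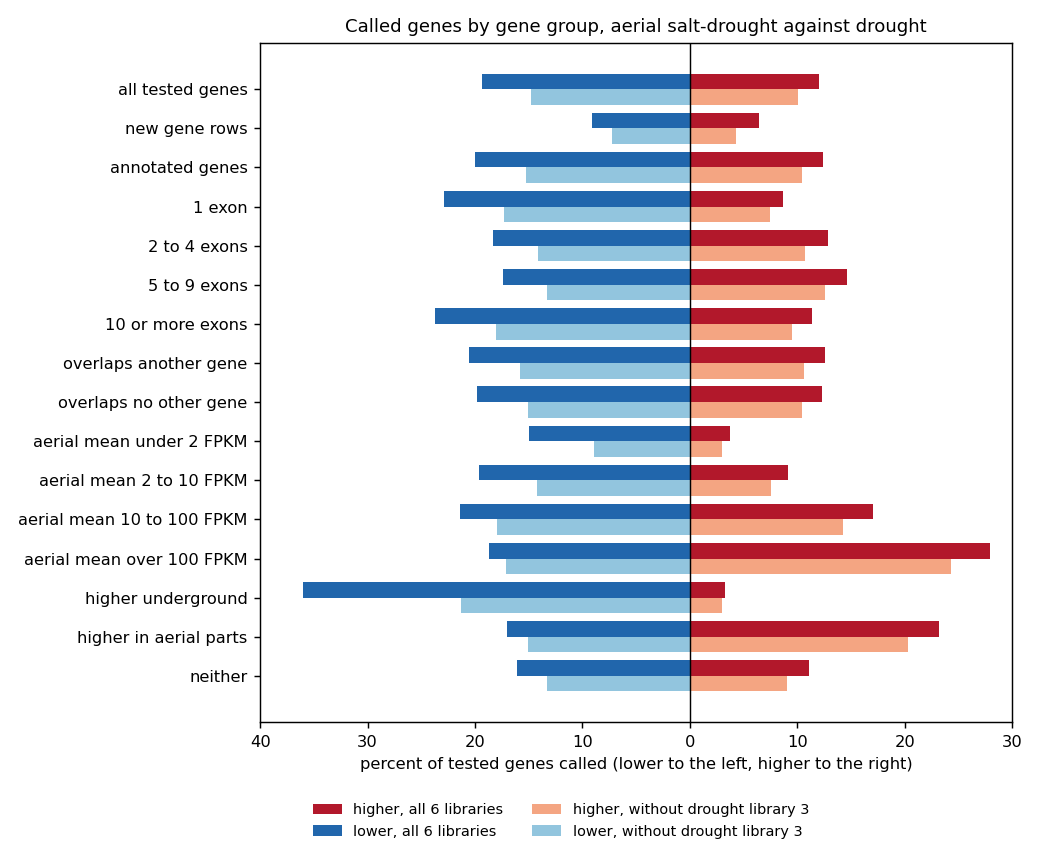
Percent of the tested genes of each gene group called higher (right) or lower (left) in aerial salt-drought than in drought, dark with all 6 libraries and light without drought library 3. Genes higher underground were called lower in 36.0% (21.3% without that library), and genes over 100 FPKM were the group called higher most often, at 27.9% (24.4%).

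Classes by gene structure lay closer to the 12.0% of all tested genes that rose and the 19.3% that fell, and their differences were not tested. Of 3187 single-exon genes 8.66% rose and 22.9% fell, of 7863 with 2 to 4 exons 12.9% rose and 18.4% fell, of 5992 genes with 5 to 9 exons 14.6% rose and 17.4% fell, and of 4933 genes with 10 or more exons 11.3% rose and 23.8% fell. Rows labelled as new genes, which have no coordinates, had 91 rises and 129 falls in 1414 (15.6% called). Genes that overlap another gene in the annotation were called in 33.2%, and those that do not in 32.1%, beside 31.3% of all tested genes. No strand information was given for the counting, so reads of overlapping genes cannot be told apart.

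The largest rise was in Glyur000380s00017141, a gene of 3 exons on Scaffold00380 (107256 to 109191, plus strand). It stood at 6.22, 15.4 and 32.6 FPKM in drought and at 426, 254 and 179 in salt-drought, a log2 change of 4.09 (SE 0.59, limma adjusted p = 0.000111). All salt-drought values lay above all drought values, as the choice of named genes required. Salt raised it without drought as well, from 7.98 ± 4.70 in control to 122 ± 68.4 (SD, n = 3 each; 3.78, SE 0.59, limma adjusted p = 0.000655), and the difference between these effects was 0.31 (SE 0.84, adjusted p = 0.872). With silicate it rose from 38.6 ± 17.6 to 278 ± 95.0 (2.85, SE 0.59, limma adjusted p = 0.00712).

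The next, Glyur000141s00009812 (Scaffold00141, 79764 to 80917, minus strand, 2 exons), had a salt effect that differed with and without drought. Its values were 2.58, 8.65 and 14.5 FPKM in drought and 55.1, 161 and 157 in salt-drought (3.79, SE 0.47, limma adjusted p = 3.42e-05). In salt without drought it was at 22.8 ± 3.72 against 11.7 ± 2.68 in control (0.92, SE 0.47, limma adjusted p = 0.270), and the salt effect under drought was larger by 2.88 (SE 0.67, limma adjusted p = 0.0249). Silicate-fed plants gave 12.3 ± 1.75 and 122 ± 64.8 (3.03, SE 0.47, limma adjusted p = 0.000895). Underground it stayed at or below 3.74 FPKM in the drought and salt-drought libraries.

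Glyur000209s00013480, a single-exon gene on Scaffold00209 (203836 to 204507, plus strand), had the largest fall. It was at 52.8, 113 and 198 FPKM in drought and at 0.0947, 0.0882 and 4.32 in salt-drought (-5.85, SE 0.94, limma adjusted p = 0.000259). Its drought values lay above the control values of 9.44, 4.34 and 32.1, a difference that was not called (3.12, SE 0.94, limma adjusted p = 0.0768). In salt alone it was at 24.8, 68.2 and 6.22. With silicate the values were 15.5, 30.8 and 14.8 in drought and 6.39, 20.8 and 4.50 in salt-drought, which overlap. Underground it was at 433 ± 86.6 in drought and 374 ± 149 in salt-drought (-0.28, SE 0.54, limma adjusted p = 0.764), and the difference between the parts was 5.57 (SE 1.13, limma adjusted p = 0.00109).

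The other named fall, Glyur001944s00035546 (Scaffold01944, 113 to 943, minus strand, a single exon overlapping another gene), rested on drought library 3. It was at 21.7, 15.2 and 2625 FPKM in drought and at 0.172, 1.65 and 3.22 in salt-drought (-5.39, SE 1.55, limma adjusted p = 0.0134), and at 31207 ± 2689 in underground salt-drought. Without drought library 3 its change was -3.02 with an adjusted p of 0.0870 in limma.

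**Figure D4:**
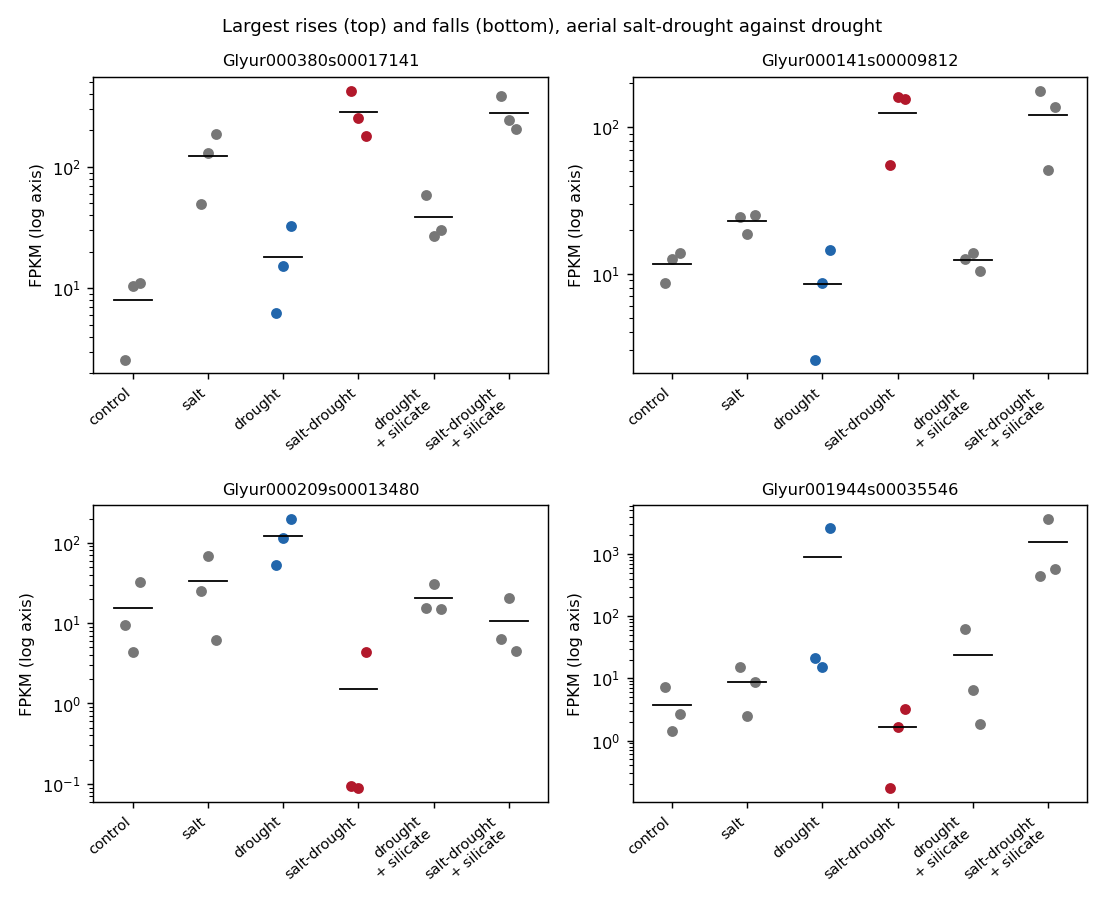
FPKM (log axes) of the genes with the largest rises (top row) and falls (bottom row) in each library of 6 aerial groups, with lines at the group means. As the choice of these genes required, drought (blue) and salt-drought (red) points do not overlap in any panel. The drought mean of Glyur001944s00035546 is set by library 3 at 2625.

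A small set of genes went from clearly expressed to nearly silent. In 20 genes all 3 drought libraries held at least 5 FPKM and all 3 salt-drought libraries less than 1. All 20 were called, against 19.3% of all tested genes that fell, but they were picked by these same values, which favours a call. Of the 20, 18 belong to the genes higher underground, a class that holds 3555 of the 23389 tested genes. In the other direction 2 genes were under 1 FPKM in drought and at 5 or more in salt-drought, of which 1 was called.

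Direction was compared between neighbouring genes. Among tested annotated genes that follow each other on a scaffold, both were called in 2129 pairs, and 59.9% of these pairs moved the same way. Over all possible pairs of called annotated genes the share is 52.7%. Without pairs that overlap, which can share reads, it was 57.8% of 1967. Runs of at least 3 neighbours called the same way numbered 55 among rises (176 genes, at most 5 in a run) and 149 among falls (491 genes, at most 7). Some runs arise in any order of genes, since 2723 of 21975 tested annotated genes rose and 4385 fell. The number that a random order would give was not computed. Whether the runs, including those described below, exceed it was therefore not tested.

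The longest run of falls covered 7 genes on Scaffold00066 (221287 to 247720), all of them higher underground and 5 of them overlapping another gene. Their summed level was 16.3, 30.2 and 107 FPKM in drought and 1.76, 1.92 and 0.648 in salt-drought. It was 23.1 ± 9.28 in control and 7.76 ± 2.04 in salt. Without drought library 3, 6 of the 7 were called, beside 3211 of all 4514 falls. Underground the run went from 908 ± 54.8 in drought to 392 ± 161 in salt-drought.

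The second run held 6 genes on Scaffold00321 (143018 to 199724), 5 of them higher underground. It summed to 148, 174 and 227 FPKM in drought and to 21.0, 33.4 and 14.5 in salt-drought. Without drought library 3, 5 of the 6 were called, beside 3211 of all 4514 falls. The sum was 114 ± 25.1 in control and 75.0 ± 46.3 in salt, and underground it was 1299 ± 35.0 in drought and 561 ± 81.1 in salt-drought. In both runs, without silicate, the salt-drought values were thus below the drought values above and below ground. With silicate the aerial values overlapped: on Scaffold00066 they were 25.1, 20.8 and 19.1 in drought and 11.4, 47.4 and 27.6 in salt-drought, and on Scaffold00321 91.1, 71.2 and 81.2 and then 32.4, 235 and 65.5. The highest of these were in library 2 of salt-drought with silicate, which held underground markers at 12.1% of their underground level. The sums were not tested.

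Of the longest runs of rises, 5 genes on Scaffold00006 (462499 to 481928, all on the minus strand, 3 overlapping another gene) summed to 189, 236 and 276 FPKM in drought and to 353, 346 and 386 in salt-drought. On Scaffold00105 (12762 to 39967) 5 genes went from 207, 203 and 197 to 251, 307 and 306. Neither run holds a gene of the underground class. Without drought library 3, 3 and 4 of their 5 genes were called, beside 2191 of all 2814 rises.

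The comparison of salt against control in aerial parts contrasts none of the same libraries and asks what salt did without drought. Both comparisons take their spread from the same fit of all 24 aerial libraries. Salt changed 6.96% of the same 23389 genes (700 rises, 928 falls; limma). Of those 700, 53.6% also rose when salt was added to drought, against 12.0% of all genes, and of the 928 falls 58.2% also fell, against 19.3%. Read the other way, 13.3% of the 2814 rises and 12.0% of the 4514 falls were called in salt alone, against 2.99 and 3.97% of all genes. Opposite calls numbered 19 in each direction, 0.675% of the 2814 rises and 0.421% of the 4514 falls, against 3.97 and 2.99% of all genes. The genes called the same way in both, 915 in all, came to 414 without control library 1, 526 without salt library 1 and 145 with only the groups compared in each fit. Over the genes called in salt alone, the median change was 0.66 for rises and -0.87 for falls in that comparison, and 0.44 and -0.62 under drought. Over the genes called under drought it was 0.66 and -0.88 there, and 0.20 and -0.24 in salt alone. Medians are larger in the comparison that chose the genes.

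The salt effect differed with and without drought in 1021 genes (4.37% of those tested, limma interaction), 420 more positive (1.80%) and 601 more negative (2.57%) under drought. Of the 420, 321 were called for salt under drought and 109 for salt without drought, and of the 601, 523 and 90. Over all tested genes 31.3% were called for salt under drought and 6.96% for salt without drought. The medians were 0.65 under drought and -0.24 without among the first and -0.93 and 0.25 among the second. These genes were chosen because the effects differ, which by itself sets the medians apart and favours calls of the single effects. The count was 108 with only the 4 groups fitted, 357 without salt-drought library 3 and 2133 without salt library 1. After rescaling, 548 differences were more positive and 512 more negative, so the excess of negative differences depends on how the libraries are scaled.

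Glyur000723s00020872 (Scaffold00723, 48139 to 50184, plus strand, 3 exons) shows a salt effect present under drought. It was at 14.4, 16.8 and 18.3 FPKM in drought and 54.8, 68.7 and 82.7 in salt-drought (1.98, SE 0.14, limma adjusted p = 3.62e-07), while control and salt stood at 28.1 ± 2.58 and 31.7 ± 4.38. The effects differed by 1.81 (SE 0.20, limma adjusted p = 0.000242). Glyur000580s00024211 (Scaffold00580, 108058 to 116095, plus strand, 10 exons) fell with salt alone, from 42.0 ± 1.15 to 22.4 ± 3.63, and rose when salt was added to drought, from 24.3 ± 1.23 to 30.1 ± 1.33 (difference 1.19, SE 0.15, limma adjusted p = 0.000819).

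In the other direction, Glyur000445s00019997 (Scaffold00445, 16402 to 19161, plus strand, overlapping another gene) was at 44.4, 51.1 and 41.5 FPKM in control and 148, 122 and 173 in salt, but at 142, 146 and 117 in drought and 119, 114 and 79.8 in salt-drought (difference -2.05, SE 0.21, limma adjusted p = 0.000220). The drought and salt values overlap, and the change on adding salt to drought was not called (-0.39, SE 0.15, limma adjusted p = 0.0567). The single-exon gene Glyur001184s00030528 (Scaffold01184, 47219 to 48034, minus strand) had the same order, at 18.3 ± 2.46 in control, 126 ± 44.3 in salt, 120 ± 36.8 in drought and 78.4 ± 9.96 in salt-drought (difference -3.23, SE 0.38, limma adjusted p = 0.000599). Unstressed plants with silicate also stood above control, at 128 ± 12.9 for Glyur000445s00019997 and 95.5 ± 2.79 for Glyur001184s00030528. High values of these genes were thus not confined to stressed plants.

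**Figure D5:**
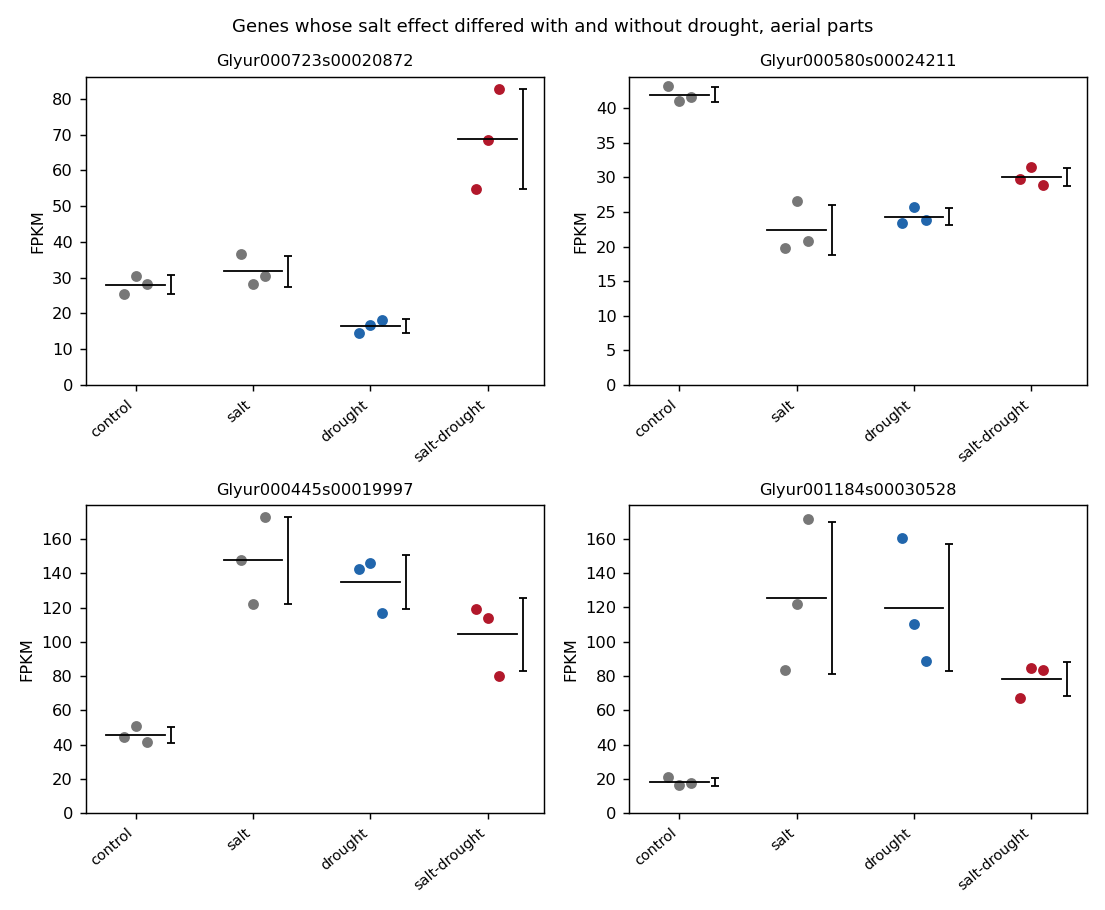
FPKM in each library of aerial control, salt, drought and salt-drought for the genes whose salt effect was more positive (top) or more negative (bottom) under drought; lines are means and brackets are SD, n = 3. Glyur000723s00020872 had its highest mean, 68.7, in salt-drought, and the genes of the bottom row were above control in all stressed groups shown. In unstressed plants with silicate, not shown, the bottom-row genes were also above control, at means of 128 and 95.5.

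In silicate-fed plants, 746 genes rose (3.19%) and 851 fell (3.64%) when salt was added to drought, 6.83% of 23389 together (limma). Of these, 51.6% of the rises and 69.0% of the falls were also called without silicate, which is 13.7 and 13.0% of the 2814 and 4514. Opposite calls came to 3 and 31 genes, 0.107% of the 2814 and 0.687% of the 4514, against 3.64 and 3.19% of all genes. The 972 genes called the same way in both came to 557 without library 2 of drought with silicate and to 570 without library 1. The salt effect differed with silicate in 1155 genes (4.94%, limma interaction), 851 more positive (3.64%) and 304 more negative (1.30%). Of the 851, 550 belong to the genes higher underground and 15 to those higher in aerial parts, while of the 304 these numbers were 1 and 162. Among all 23389 tested genes the classes hold 3555 and 4046. When only genes not higher underground were fitted, 136 differences were more positive and 132 more negative. With all genes and rescaled libraries these numbers were 793 and 556. Underground markers stood at 12.1% of their underground level in library 2 of salt-drought with silicate, and at 0.869 and 1.87% in libraries 1 and 3. Without that library and drought library 3 the difference was called in 11 genes, and without salt-drought library 3 in 33.

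Glyur000723s00020872 was among the genes whose rise was smaller with silicate, from 22.3 ± 1.00 to 34.9 ± 2.24 (difference -1.36, SE 0.20, limma adjusted p = 0.0113). Glyur000849s00021638 (Scaffold00849, 59903 to 62651, minus strand, 4 exons) went from 62.4 ± 6.49 to 116 ± 10.2 without silicate and stood at 77.5 ± 4.38 and 71.6 ± 7.09 with it (difference -1.0, SE 0.14, limma adjusted p = 0.00714). Both had groups that did not overlap without silicate. Glyur000025s00003309 (Scaffold00025, 171472 to 172684, minus strand), of the underground class, fell from 38.7, 23.1 and 60.0 to 1.39, 3.39 and 0.666 without silicate and rose from 5.35, 6.39 and 7.15 to 29.4, 122 and 32.9 with it (difference 6.70, SE 0.85, limma adjusted p = 0.00514). Its highest values in drought and in salt-drought with silicate were in the libraries with the most underground markers. Glyur000043s00003793 (Scaffold00043, 190002 to 193865, plus strand, overlapping another gene), also of that class, went from 14.8 ± 4.99 to 3.61 ± 1.68 and with silicate from 6.77 ± 1.69 to 18.3 ± 5.40 (difference 3.09, SE 0.50, limma adjusted p = 0.0143). Without the libraries richest in underground markers its adjusted p was 0.0609 in limma.

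Underground, the same step from drought to salt-drought changed 3898 of 24478 genes, 15.9%, 2389 up (9.76%) and 1509 down (6.16%). Without underground salt-drought library 3 the count was 2159. When each library was divided by its median ratio to the others, 1580 genes rose and 1977 fell underground. Which direction was more frequent there thus depends on scaling. Of 21769 genes tested in both parts, 519 rose in both, which is 19.5% of the aerial and 22.6% of the underground rises, where 10.5% of all genes rose underground. Falls in both numbered 698, which is 15.9% of the aerial and 49.7% of the underground falls, where 6.45% of all genes fell underground. Calls were opposite in 58 aerial rises that fell underground and 218 aerial falls that rose underground. These are 2.18% of the aerial rises and 4.98% of the aerial falls, where 6.45% of all genes fell and 10.5% rose underground. The aerial median over the genes that fell underground was -0.65, while over those that rose underground it was 0.09, beside -0.09 for all genes. The effects differed between the parts in 4413 of 26335 genes (16.8%, limma interaction), 3354 more positive underground (12.7%) and 1059 more negative (4.02%), and in 2781 without aerial salt-drought library 3. After rescaling the split was 1989 and 1960, so the excess of positive differences depends on how the libraries are scaled.

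Glyur001820s00032860 (Scaffold01820, 37245 to 40383, plus strand, overlapping another gene) fell above ground from 12.6 ± 1.25 to 6.36 ± 1.02 and rose underground from 11.2 ± 1.37 to 17.8 ± 0.273 FPKM (difference 1.52, SE 0.16, limma adjusted p = 4.76e-07). Glyur000925s00020300 (Scaffold00925, 47454 to 49929, plus strand, overlapping another gene) fell above ground from 26.9, 35.0 and 23.7 to 12.0, 12.8 and 10.4, and underground stood at 12.5 ± 0.744 and 14.2 ± 0.974 (difference 1.37, SE 0.16, limma adjusted p = 2.24e-06). Glyur000164s00014494 (Scaffold00164, 207466 to 211372, minus strand, 9 exons) was at 20.4, 17.5 and 12.7 and then 13.2, 13.0 and 12.7 above ground, and fell underground from 27.4, 22.9 and 24.6 to 0.459, 2.18 and 1.27 (difference -3.23, SE 0.34, limma adjusted p = 3.71e-07). Glyur000061s00006530 (Scaffold00061, 153133 to 154608, minus strand, 5 exons) fell underground from 10.5, 9.98 and 9.23 to 0.0354, 0.294 and 0.570. Above ground it was under 0.48 FPKM in drought and listed at 0 in all salt-drought libraries, so its difference of -2.88 (SE 0.30, limma adjusted p = 3.71e-07) comes from the underground values.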

How the data were processed

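RNA was measured in 48 libraries. The authors deposited 1 table of FPKM values. The submitters' processing notes name TopHat2 and Cufflinks, but the sources used here give no version, setting, strand handling or genome build. The labels describe nanopore full-length cDNA libraries (14 PCR cycles) and Illumina libraries, without saying which gave the values. The deposited annotation holds 34445 genes on 4853 scaffolds, in 1-based coordinates, with no assembly named; 4018 further rows are new genes, and 9485 annotated genes overlap another.

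Values were analysed as log2(FPKM + 1) with limma 3.58.1 (R 4.3.3; group means, moderated variances with the trend and robust options). All 24 aerial libraries (24 underground, or all 48 where parts were compared) entered a fit. A gene was tested if 3 or more libraries of the fit reached 1 FPKM, and p-values were Benjamini-Hochberg adjusted over them. FPKM are not counts, and 40.4 to 54.9% of low values (20% by chance) lay within 0.1 of a whole fragment, so fragments were not recovered and depths (14.8 to 33.8 M) are rough. On simulated data for the main comparison, limma recovered 73 of 100 genes given a change of 1 log2 unit and 95 of 100 given 2, with 10 calls in 22595 unchanged genes. Only better expressed genes were given a change, far fewer than were called in the data, and noise was independent between genes. The figures therefore do not cover scarce genes or libraries with underground transcripts.

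Underground markers had at least 100 FPKM in each unstressed underground library and a mean above ground of at most 0.5% of that underground. Named genes in the main comparison were the called genes with the largest changes, no overlap between groups and a mean of at least 5 FPKM; for differences of effects, those with the smallest adjusted p. Members, groups and rules were chosen with earlier results of these data known. Alternatives were a pseudocount of 0.1, no filter, rescaling, other sets of libraries or genes, and a replicate block.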

Additional observations from a re-analysis of the deposited data

Results flagged for a closer look

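Effects under the same contrast differed between groups, by interaction tests in limma, in 1021 genes for salt with and without drought, in 1155 for silicate and in 4413 for the plant parts. The named genes of these tests are singled out for the same reason, with log2 differences of 1.81 (Glyur000723s00020872), 1.19 (Glyur000580s00024211), -2.05 (Glyur000445s00019997) and -3.23 (Glyur001184s00030528) for drought. For silicate they are 6.70 (Glyur000025s00003309), 3.09 (Glyur000043s00003793), -1.0 (Glyur000849s00021638) and -1.36 (Glyur000723s00020872). For underground against aerial parts they are 1.52 (Glyur001820s00032860), 1.37 (Glyur000925s00020300), -2.88 (Glyur000061s00006530) and -3.23 (Glyur000164s00014494).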

How the results depend on the processing

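The main count of 7328 genes stayed within 1.5 times under all alternatives that keep the call rule, apart from the one without salt-drought library 3; it was 4740 to 6241 without any 1 library, and 2421 with a change of at least 1 log2 unit required. The difference of salt effects with and without drought was 626 genes without a filter, 108 with only its 4 groups fitted and 357 to 2133 without any 1 library. The silicate difference was 268 over genes not higher underground, 11 without the aerial libraries richest in underground markers, 82 with only its 4 groups and 33 to 1639 without any 1 library. The part difference was 2781 to 4631 without any 1 library. Salt against control gave 1628 genes, 226 with only its groups and 736 to 1613 without any 1 library. The step with silicate gave 1597, 893 without the marker-rich libraries, 1021 with only its groups and 806 to 1319 without any 1 library, and the underground step 3898 and 2159 to 3478. Of the counts without any 1 library, the lowest came without control library 1 (salt against control), library 2 of drought with silicate (the step with silicate), underground salt-drought library 3 (underground) and aerial salt-drought library 3 (all others). Glyur001944s00035546 also lost its call with only the 2 groups fitted (adjusted p = 0.0737 in limma) and without the marker-rich libraries (0.0709; range over its alternatives 0.00756 to 0.0870). In the comparison that each was named for, the other named genes except Glyur000043s00003793 (0.00458 to 0.0609) kept their calls in every alternative that tested them, and none turned. Their values in other comparisons were not recomputed. The same replicate numbers occur in all groups, but same-numbered drought and salt-drought libraries did not deviate together (r from -0.13 to -0.04, and 0 of 6 libraries correlated best with its own number). With the replicate block 7089 genes were called in the main comparison, and 866, 915 and 4353 in the differences by drought, silicate and part. Scarce genes are limited by depth, and a fall to under 1 FPKM is measured by few fragments.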
